A study of Mus musculus with 60 samples.

Results

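Malat1, Neat1, Tug1, Meg3, Rian, Mirg and Miat are 7 long noncoding RNA genes that were followed here in MSTN-null and wild-type C57BL/6J mice. Every probe set of the Affymetrix MOE430A and MOE430B chips that the platform annotation assigns to 1 of these symbols was taken, each probe set apart, which gave 31 of the 45037 probe sets measured, or 7 of 18193 genes. Malat1 had 7 probe sets, Neat1 2, Tug1 3, Meg3 11, Rian 4, Mirg 2 and Miat 2, with 17 on MOE430A and 14 on MOE430B. The genes were selected on measured values, the genotype differences of these probe sets at 13.5 d.p.c., so the values of that age are given as a description.

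Mice lacking functional myostatin (MSTN-null) were compared with wild-type mice at each of 3 time points, as entire embryos at 13.5 d.p.c. (days post coitum), as hindquarters at 17.5 d.p.c., and as pectoralis muscle at d35 (35 days after birth). Each group held 5 RNA pools, every pool was made from 3 animals of a single genotype (15 animals per group), and with 1 array of either chip per pool there were 60 arrays. Myostatin, a secreted member of the TGF-beta family, restrains the growth of skeletal muscle, and its loss in these animals was present from conception in all tissues, so a whole embryo or a hindquarter reports on many tissues besides muscle. Mstn itself was not analysed here, so the genotype of the pools was not checked on the targeted gene.

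Long noncoding RNAs are transcripts that act without being translated, and several of the 7 stay in the nucleus. Malat1 gathers in nuclear speckles, where splicing factors are stored, and Neat1 is the scaffold on which paraspeckles are built. Meg3, Rian and Mirg are expressed from the maternal copy of the imprinted Dlk1-Dio3 locus, where Rian is a host of small nucleolar RNAs and Mirg a host of microRNAs. Tug1, first described in the retina, has been linked to Polycomb repression, and Miat (Gomafu) is a nuclear RNA best known from neurons.

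In the RefSeq annotation of GRCm38.p6, Malat1 (chr19:5795690-5802672) and Neat1 (chr19:5824708-5845480) are neighbours with 22035 bases between them. Meg3 (chr12:109540996-109571729), Rian (chr12:109603945-109661716) and Mirg (chr12:109734981-109749458) span 208 kb, a stretch that holds 112 annotated mature microRNAs, 19 of them inside Mirg. Tug1 lies at chr11:3639785-3648814 and Miat at chr5:112213228-112228948. Where within these transcripts each probe set hybridizes was not analysed here.

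The RefSeq promoter table (GRCm38.p6, 250 bases before to 50 after a transcript start) held 6 of the 7 genes, and windows are printed for Malat1, Tug1 and Rian because these are the genes with a probe set past the threshold at 13.5 d.p.c. They lie at chr19:5802623-5802922 (minus strand), chr11:3648765-3649064 (minus strand) and chr12:109603695-109603994 (plus strand). Capitals mark matches on either strand to CAGAC (a binding element of the SMAD3 and SMAD4 factors that act downstream of myostatin), GGGCGG (the GC box of SP1), CANNTG (the E-box) and TATAAA (the TATA box), and none of the marked matches overlap each other.
Malat1: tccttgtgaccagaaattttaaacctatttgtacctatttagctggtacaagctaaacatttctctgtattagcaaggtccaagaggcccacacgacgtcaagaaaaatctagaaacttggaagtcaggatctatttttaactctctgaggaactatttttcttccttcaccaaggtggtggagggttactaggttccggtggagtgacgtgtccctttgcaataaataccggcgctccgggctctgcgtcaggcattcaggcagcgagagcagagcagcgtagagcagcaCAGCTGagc
Tug1: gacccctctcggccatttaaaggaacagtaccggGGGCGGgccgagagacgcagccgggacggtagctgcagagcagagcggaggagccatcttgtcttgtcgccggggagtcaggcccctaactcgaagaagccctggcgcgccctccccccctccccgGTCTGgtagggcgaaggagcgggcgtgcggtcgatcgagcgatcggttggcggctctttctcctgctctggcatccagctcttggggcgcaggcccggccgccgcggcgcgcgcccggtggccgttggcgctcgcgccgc
Rian: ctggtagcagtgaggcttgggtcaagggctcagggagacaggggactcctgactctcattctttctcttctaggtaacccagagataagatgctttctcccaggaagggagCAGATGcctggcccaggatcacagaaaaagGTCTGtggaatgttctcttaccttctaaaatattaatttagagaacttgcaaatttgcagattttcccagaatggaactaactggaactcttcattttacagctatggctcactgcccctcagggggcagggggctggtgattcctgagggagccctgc

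The Malat1 window held 1 E-box, which starts 42 bases into the transcript, and no match to the other motifs. The Tug1 window held a CAGAC match at -90 and a GGGCGG match at -216, and the Rian window a CAGAC match at -109 and an E-box at -139, all counted from the transcript start. Of 32851 promoter windows in the table, 49.6% held CAGAC, 35.7% GGGCGG, 72.3% CANNTG and 13.6% TATAAA, so these are common strings. Mirg had no CAGAC, while Meg3 (at both of its annotated starts) and Miat had 1 each. The matches are strings of letters and were not measured as binding sites.

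The values are the authors' log2 intensities after RMA (robust multi-array analysis, which corrects the background, normalizes across arrays and summarizes the probes of a set). They ran from 2.78 to 15.3 over all arrays. Array medians on MOE430A lay at 8.05 to 8.09 in embryos, 7.78 to 7.86 in hindquarters and 6.88 to 6.94 in pectoralis, which agree within a time point and differ between them. A level is therefore compared across ages only as its percentile, the share of probe sets on the same array with a lower value. Marker averages are given as a description of each age, and these log2 averages are not compared between ages. The 12 skeletal muscle marker genes averaged 8.80 in MSTN-null and 8.70 in wild-type embryos, 11.7 and 11.6 in hindquarters, and 11.5 (MSTN-null) and 11.5 (wild-type) in pectoralis. In the same order, 10 neuronal markers averaged 10.1 and 10.2, 8.23 and 8.34, and 5.34 and 5.34. Pool 1 of both genotypes and wild-type pool 5 stood apart at 17.5 d.p.c. The count past the threshold at that age is given with and without them, as are some differences, and other results of that age include them.

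Probe sets of the Dlk1-Dio3 RNAs stood between percentile 59.0 and 99.9 in the embryo and took lower places in pectoralis. Meg3 1452905_at stood at percentile 99.93 in MSTN-null and 99.94 in wild-type embryos, at 99.96 in both at 17.5 d.p.c., and at 95.2 in MSTN-null and 96.3 in wild-type muscle at d35. A steeper drop was seen for Meg3 1436713_s_at, at 92.9 in MSTN-null and 93.1 in wild-type embryos, 95.2 and 94.8 in hindquarters, and 19.8 and 19.6 in pectoralis. Every one of the 17 probe sets of Meg3, Rian and Mirg ranked lower at d35 than at 17.5 d.p.c. in both genotypes.

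Mirg 1457030_at held percentile 98.2 in MSTN-null and 97.9 in wild-type embryos, 99.4 and 99.3 in hindquarters, and 46.0 and 41.8 in pectoralis. For Rian 1428055_at the places were 70.9 and 73.5, then 75.5 and 72.1, then 10.6 and 10.5. Rian 1452899_at was highest in the fetus, at 94.96 in MSTN-null and 94.3 in wild-type hindquarters, with 59.0 and 62.4 in embryos and 47.8 and 42.6 in pectoralis. For these 3 probe sets every pool at d35 ranked below every pool at 17.5 d.p.c., and the plot of percentiles shows the spread as error bars.

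Neat1 ran the other way on 1 of its probe sets. Neat1 1428083_at stood at percentile 53.0 in MSTN-null and 50.1 in wild-type embryos, 84.9 and 87.6 in hindquarters, and 95.6 and 96.7 in pectoralis, while Neat1 1442881_at stayed between 95.5 and 97.0 throughout. The brightest Malat1 probe set of MOE430A, 1438403_s_at, kept a high place (96.3 in MSTN-null and 97.4 in wild-type embryos, 93.9 and 93.3 in hindquarters, 95.9 and 96.3 in pectoralis). Tug1 1415708_at had 94.3 and 94.2, 93.1 and 93.4, and 78.5 and 77.8, and Miat 1455325_at 99.5 and 99.5, 94.97 and 94.8, and 94.5 and 94.5. Age, tissue and any separate normalization of the time points cannot be told apart here, and the order of the levels carries no test.

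**Figure D1:**
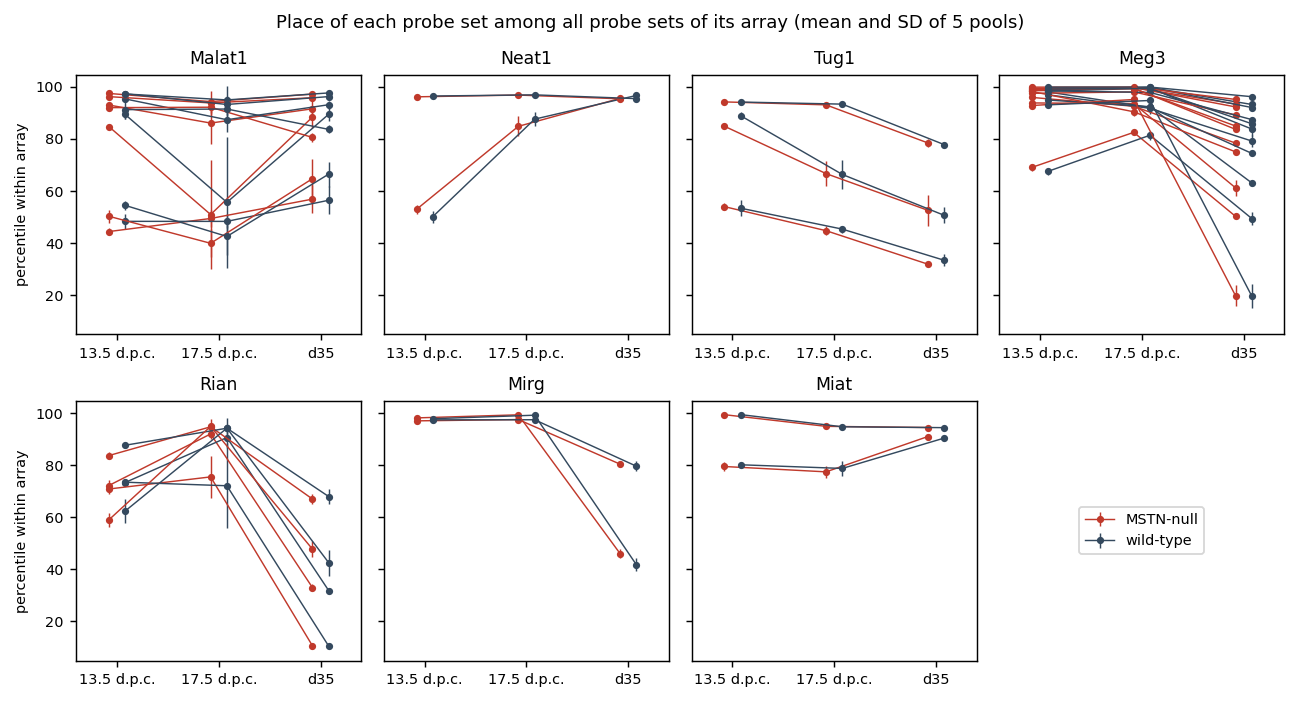
Percentile of each probe set among all probe sets of its array (vertical axis, percent) at the 3 time points, 1 panel per gene. Points are means of 5 pools with SD bars, MSTN-null in red and wild-type in dark blue; Meg3, Rian and Mirg drop to lower places at d35, such as 19.8 and 19.6 for Meg3 1436713_s_at, while Neat1 1428083_at climbs to 95.6 and 96.7.

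At 13.5 d.p.c., 5 of the 31 probe sets had a Storey q under 0.05 in limma, and all 5 were lower in MSTN-null embryos: 3 of Malat1, 1 of Tug1 and 1 of Rian. Over all 45037 probe sets 0.54% were past this threshold, 0.513% as lower and 0.0266% as higher in MSTN-null. Because the genes were chosen with this contrast known, nothing is read from the count. Differences are given as MSTN-null minus wild-type on the log2 scale, the opposite direction to the study's, so a negative value means a lower level in MSTN-null, and every error is over 5 pools per genotype. Each SE and interval is limma's moderated one, in which the variance of a probe set is drawn toward a value estimated from all probe sets. An SE can therefore be larger or smaller than the printed pools alone would give. Nothing in the labels says more of how the pools were raised, so the errors refer to pools.

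Malat1 1418188_a_at measured 9.77, 9.97, 10.00, 9.89 and 9.82 in MSTN-null pools 1 to 5, against 10.35, 10.37, 10.38, 10.41 and 10.03 in wild-type pools 1 to 5. The 5 MSTN-null pools all lay below the 5 wild-type pools, of which pool 5 stood nearest to them. The difference was -0.42 ± 0.07 (SE, 95% interval -0.56 to -0.28), or 0.747-fold of wild-type.

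A second probe set from the same source transcript, 1418189_s_at, gave 10.71, 10.77, 10.69, 10.75 and 10.72 in MSTN-null pools, against 11.38, 11.27, 11.51, 11.02 and 10.82 in wild-type pools. Here the MSTN-null pools were tight and the wild-type pools spread, and the groups did not overlap. Its difference was -0.47 ± 0.10 (SE, 95% interval -0.68 to -0.27), 0.721-fold of wild-type. Malat1 1438403_s_at read 11.59, 11.32, 11.41, 11.18 and 11.48 in MSTN-null embryos, against 11.68, 11.84, 11.88, 11.71 and 11.59 in wild-type embryos. The highest MSTN-null pool and the lowest wild-type pool were almost equal on this probe set, and its difference was -0.34 ± 0.07 (SE, 95% interval -0.50 to -0.19), 0.788-fold of wild-type.

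The other 4 Malat1 probe sets were not past the threshold. Malat1 1452378_at and 1427285_s_at, also on MOE430A, differed by -0.20 and -0.19, with overlapping pools. The pair on MOE430B had the other sign. Malat1 1429060_at read 9.85, 9.93, 9.93, 9.86 and 9.87 in MSTN-null, against 9.76, 9.84, 9.84, 9.77 and 9.85 in wild-type, a difference of 0.08 ± 0.04 (SE, 95% interval -0.0039 to 0.16), and 1436202_at differed by 0.05 ± 0.11 (SE, 95% interval -0.19 to 0.30). The 7 probe sets of Malat1 thus split by chip, with 5 of 5 negative on MOE430A and both positive on MOE430B.

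Tug1 and Rian showed the same unevenness. Tug1 1456398_at gave 9.87, 9.99, 9.93, 9.83 and 9.87 in MSTN-null pools, against 10.39, 10.20, 10.36, 10.26 and 10.10 in wild-type pools, with no overlap and a difference of -0.36 ± 0.05 (SE, 95% interval -0.48 to -0.25), 0.778-fold of wild-type. The brighter Tug1 1415708_at read 10.86, 11.01, 10.90, 10.89 and 10.96 in MSTN-null, against 10.90, 10.86, 11.00, 10.96 and 10.92 in wild-type, groups that covered the same range, with a difference of -0.01 on MOE430A and 0.10 on MOE430B, where it is also spotted. Tug1 1426771_at differed by 0.02.

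Rian 1440001_at measured 8.50, 8.48, 8.38, 8.29 and 8.42 in MSTN-null, against 8.63, 8.63, 8.80, 8.68 and 8.59 in wild-type. All MSTN-null pools were lower, and the difference was -0.25 ± 0.05 (SE, 95% interval -0.36 to -0.14), 0.841-fold of wild-type. The other 3 Rian probe sets were negative as well, at -0.15, -0.17 and -0.07, with overlapping pools. In a bulk sample, fewer cells that express an RNA and less of it per cell cannot be told apart.

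Meg3 was mixed, with 6 of 11 probe sets negative and a range of -0.26 to 0.10. Meg3 1429257_at was the only member outside the threshold whose pools did not overlap: 10.04, 10.02, 9.92, 9.63 and 9.99 in MSTN-null, against 10.13, 10.27, 10.30, 10.10 and 10.08 in wild-type, a difference of -0.26 ± 0.07 (SE, 95% interval -0.41 to -0.10). With it, 6 of the 31 probe sets had non-overlapping pools, all lower in MSTN-null, where 2.4% of all probe sets did not overlap (1.66% lower in MSTN-null). Neat1, Mirg and Miat had 0 probe sets past the threshold, with differences from -0.06 to 0.13. Over the 31 members the median difference was -0.06, with 20 negative, against -0.0005 over all probe sets, of which 50.3% were negative.

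**Figure D2:**
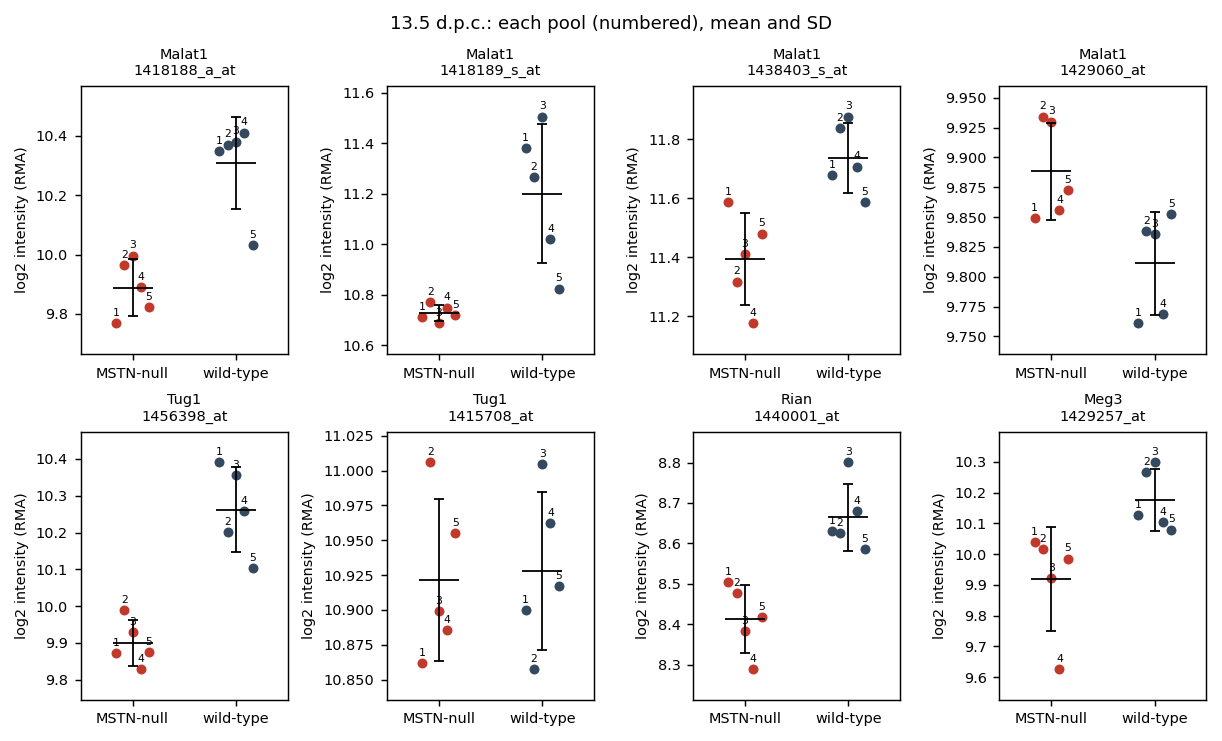
Log2 intensity (vertical axis) of each numbered pool at 13.5 d.p.c. for 8 probe sets, MSTN-null left and wild-type right, with the mean (long dash) and SD (bar) of 5 pools. The groups do not overlap in Malat1 1418188_a_at, 1418189_s_at and 1438403_s_at, Tug1 1456398_at, Rian 1440001_at and Meg3 1429257_at, while Tug1 1415708_at covers the same range in both.

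The count at 13.5 d.p.c. changed when single pools were left out, as did the number past the threshold over all probe sets. The member count was 0 of 31 without wild-type pool 1 (when 1 probe set of all 45037 was past the threshold), 1 without MSTN-null pool 4, without MSTN-null pool 5 or without wild-type pool 3, 2 without MSTN-null pool 3 or wild-type pool 2, 3 without MSTN-null pool 1, MSTN-null pool 2 or wild-type pool 4, and 5 without wild-type pool 5. The 5 members past the threshold over all pools kept their negative sign each time. A control of RNA quality differed between the genotypes at this age. On MOE430B the actin control, its 3' minus its 5' probe set, was 0.290 to 0.318 in MSTN-null and 0.160 to 0.234 in wild-type pools (exact permutation test, two-sided p = 0.00794, the smallest that 5 against 5 can give, 0.0476 after Benjamini-Hochberg adjustment over 12 tests). On MOE430A it was 0.201 to 0.346 in MSTN-null and 0.0677 to 0.214 in wild-type (exact p = 0.0159, adjusted 0.0635), and the Gapdh control overlapped on both chips. Cell type markers differed as well. All 8 hepatocyte, all 7 cartilage and bone and all 7 macrophage genes averaged higher in MSTN-null, with 0 past the threshold, and 5 of 6 endothelial and 7 of 10 neuronal genes lower, where 50.3% of all probe sets were lower. In the other lists 3 of 12 skeletal muscle, 1 of 6 erythroid, 1 of 5 Schwann cell, 1 of 5 white adipocyte and 4 of 6 epithelial genes averaged lower. The neuronal gene Elavl4 was lower past the threshold (9.29 in MSTN-null and 9.59 in wild-type, limma q = 0.0364), as were 0.513% of all probe sets. The muscle list's myosin gene Myh1, on a dim probe set, was higher (5.60 in MSTN-null and 5.34 in wild-type, limma q = 0.0476), as were 0.0266%. Each was the only gene of its list past the threshold. The summed lists overlapped between genotypes in range, with neuronal averages of 9.98 to 10.16 in MSTN-null and 10.13 to 10.23 in wild-type pools and macrophage averages of 8.71 to 8.77 and 8.61 to 8.72. The part of these values in the differences was not tested.

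At 17.5 d.p.c. no member was past the threshold: 0 of 31 by limma's Storey q and by Benjamini-Hochberg, 0 with an unadjusted p under 0.05 and 0 with non-overlapping pools, where 0% of all probe sets were past it, 2.43% had such a p and 0.535% did not overlap (0.331% lower in MSTN-null). The median member difference was 0.02, with 14 of 31 negative, where 50.5% of all probe sets were. What stood out was the spread between pools of 1 genotype. Malat1 1418188_a_at measured 5.96, 8.67, 8.20, 8.03 and 8.27 in MSTN-null pools 1 to 5, against 6.06, 8.12, 8.27, 8.26 and 9.89 in wild-type pools 1 to 5. Pool 1 of each genotype was far below the others and wild-type pool 5 far above, a 15.3-fold range over the 10 pools. The difference was -0.30 ± 0.66 (SE, 95% interval -1.75 to 1.16), an interval wide enough to hold large differences in either direction.

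Malat1 1438403_s_at followed the same pools, with 9.86, 11.31, 11.21, 11.11 and 11.15 in MSTN-null and 9.52, 11.20, 11.17, 11.13 and 11.98 in wild-type, and a difference of -0.07 ± 0.41 (SE, 95% interval -0.98 to 0.84). Rian 1428055_at read 8.46, 9.24, 9.49, 8.89 and 9.54 in MSTN-null and 7.60, 8.87, 9.31, 9.13 and 10.12 in wild-type, again lowest in pool 1 of each genotype and highest in wild-type pool 5, with a difference of 0.12 ± 0.39 (SE, 95% interval -0.74 to 0.97). The pooled SD within genotype put Malat1 1418188_a_at at percentile 99.9 of all probe sets at this age, Malat1 1438403_s_at at 99.6 and Rian 1428055_at at 99.6. At 13.5 d.p.c. the same probe sets stood at 92.5, 94.96 and 69.4, and at d35 at 99.2, 98.5 and 68.4. A high percentile of the SD was thus not limited to the hindquarters for these Malat1 probe sets.

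Pool 1 was the lowest of its group in both genotypes for 5 of 7 Malat1 and 3 of 4 Rian probe sets, for 10 of the 31 members in all, and for 11.5% of all probe sets. Wild-type pool 5 was the highest wild-type pool for all 7 Malat1 and all 4 Rian probe sets, for 23 of 31 members, and for 26.4% of all probe sets. Neat1 went another way: Neat1 1428083_at gave 10.11, 9.92, 9.39, 9.40 and 9.98 in MSTN-null, against 10.45, 9.92, 9.69, 9.94 and 10.10 in wild-type, with pool 1 the highest of each genotype, and a difference of -0.26 ± 0.17 (SE, 95% interval -0.64 to 0.12). Meg3 1452905_at, at percentile 78.8 of the SDs, lay between 12.32 and 13.00 in MSTN-null and between 12.45 and 12.81 in wild-type.

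Other features of these pools differed too. A list of 8 hepatocyte genes averaged 12.3 in MSTN-null pool 1, the highest of the MSTN-null pools, and 13.0 in wild-type pool 1, the highest of the wild-type pools, against 11.3 in wild-type pool 5, the lowest there. MSTN-null pool 5, at 8.53, had the lowest hepatocyte level of all without standing out in Malat1. With it included, all 8 hepatocyte genes averaged lower in MSTN-null (median difference -1.02), as did all 7 macrophage genes. So did 7 of 10 neuronal, 4 of 6 erythroid, 4 of 6 epithelial, 5 of 7 cartilage and bone and 4 of 6 endothelial genes. Of skeletal muscle 1 of 12, of Schwann cell 2 of 5 and of white adipocyte genes 0 of 5 averaged lower, where 50.5% of all probe sets did. None passed the threshold. The actin 3' minus 5' value of wild-type pool 5 was 0.538 on MOE430A and 0.734 on MOE430B, above the 0.295 to 0.378 and 0.438 to 0.536 of the other wild-type pools. The Gapdh control on MOE430B separated the genotypes at this age, at -0.0795 to -0.005 in MSTN-null and -0.0011 to 0.0353 in wild-type pools (exact permutation test, two-sided p = 0.00794, adjusted 0.0476). The part of these values in the spread and in the differences was not tested. Without pool 1 of both genotypes, and without these and wild-type pool 5, 0 of 31 members were past the threshold. Leaving out the pools 1 gave -0.067 for Rian 1428055_at, of the opposite sign to its value over all pools. Leaving out wild-type pool 5 as well gave 0.074 for Malat1 1418188_a_at and 0.028 for Malat1 1438403_s_at, also of the opposite sign. Of these joint exclusions, each probe set changed sign under only the exclusion named. Rian 1428055_at was positive with wild-type pool 5 also left out, and both Malat1 probe sets were negative without the pools 1 alone. Leaving out single pools also changed the signs. Malat1 1418188_a_at then ran from -0.81 to 0.17, Malat1 1438403_s_at from -0.44 to 0.20 and Rian 1428055_at from -0.23 to 0.40.

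**Figure D3:**
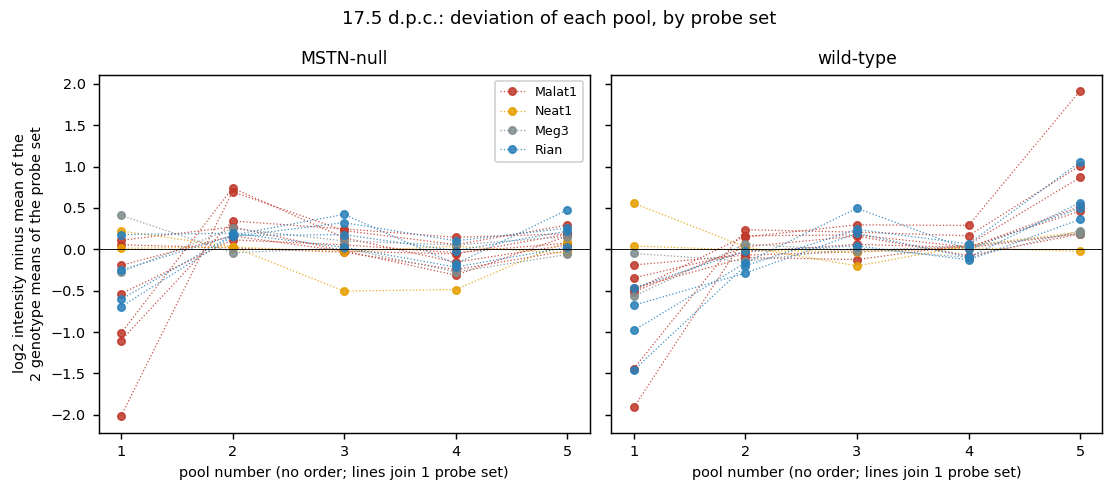
Deviation of each pool at 17.5 d.p.c. from the mean of both genotype means of the probe set (vertical axis, log2) by pool number, MSTN-null left and wild-type right, for all probe sets of Malat1, Rian and Neat1 and for Meg3 1452905_at and 1429257_at. Most Malat1 and Rian probe sets lie low in pool 1 of both genotypes and all are highest of wild-type in pool 5; Neat1 1428083_at is highest in pool 1.

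At d35, 0 of the 31 probe sets were past the threshold by limma's Storey q, while 4.58% of all 45037 probe sets were (2.5% lower and 2.08% higher in MSTN-null). By Benjamini-Hochberg the count was also 0, and 7 members had an unadjusted p under 0.05, against 17.9% of all probe sets. Non-overlapping pools were found for 0 members and 5.25% of all (2.48% lower and 2.77% higher in MSTN-null). The members nearest to the threshold were 1 probe set each of Neat1, Mirg and Meg3.

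Neat1 1428083_at measured 10.16, 10.67, 10.59, 10.59 and 10.72 in MSTN-null pectoralis, against 11.05, 10.85, 10.79, 11.28 and 10.70 in wild-type pectoralis. Pool 1 was the lowest MSTN-null pool, and only MSTN-null pool 5 reached the lowest wild-type pool. The difference was -0.39 ± 0.12 (SE, 95% interval -0.64 to -0.13), 0.765-fold of wild-type, with limma q = 0.0634. The other probe set of Neat1, 1442881_at, differed by -0.04. Of 18 alternatives 16 left Neat1 1428083_at outside the threshold, with limma q up to 0.124 and a difference of -0.29 without MSTN-null pool 1, while quantile normalization (q = 0.0425) and leaving out wild-type pool 5 (q = 0.0471) put it past.

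Mirg 1457030_at read 6.07, 6.08, 6.02, 6.06 and 5.91 in MSTN-null, against 5.78, 5.94, 5.89, 5.90 and 5.68 in wild-type, where only MSTN-null pool 5 lay inside the wild-type range. Its difference was 0.19 ± 0.06 (SE, 95% interval 0.06 to 0.32) with limma q = 0.065, and of 17 alternatives only leaving out MSTN-null pool 5 put it past the threshold (q = 0.0499, the others up to 0.130). Meg3 1452905_at gave 8.51, 8.63, 8.42, 8.85 and 8.48 in MSTN-null, against 8.98, 8.83, 8.70, 8.92 and 8.71 in wild-type. Here MSTN-null pool 4 lay inside the wild-type range, and the difference was -0.25 ± 0.08 (SE, 95% interval -0.43 to -0.07) with limma q = 0.0811, 0.0275 without that pool and 0.0497 with a replicate block, while the other 15 of 17 alternatives left it outside, with q up to 0.177.

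Meg3 1429257_at, lower in all MSTN-null pools in the embryo, was at 7.93, 7.92, 7.84, 7.85 and 7.86 in MSTN-null pectoralis, against 7.77, 7.69, 7.71, 7.74 and 7.86 in wild-type, a difference of 0.13 ± 0.05 (SE, 95% interval 0.03 to 0.23) (limma q = 0.107). Malat1 1436202_at (-0.16) and 1429060_at (-0.17) and Rian 1452899_at (0.22) made up the 7, with limma q of 0.109, 0.174 and 0.157. The 3 Malat1 probe sets that were past the threshold in embryos differed by -0.11, -0.24 and -0.10 at d35, with SEs of 0.20, 0.20 and 0.16. Tug1 and Miat differences lay between -0.08 and 0.08. Over the members the median was -0.02, with 16 of 31 negative, against 0.01 over all probe sets, of which 44% were negative.

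Some markers of other cell types differed between genotypes in these pools. White adipocyte genes (5 measured) averaged 8.57 to 9.49 in MSTN-null and 9.42 to 9.69 in wild-type pools, endothelial genes (6) 7.80 to 8.02 and 8.06 to 8.29, and Schwann cell genes (5) 7.69 to 7.89 and 7.94 to 8.30. Of these, 2 adipocyte, 3 endothelial and 1 Schwann cell genes were past the threshold, all lower in MSTN-null, where 2.5% of all probe sets were. Macrophage genes (7) averaged 7.81 to 8.28 in MSTN-null and 8.06 to 8.996 in wild-type pools, with 0 past the threshold. Of 12 skeletal muscle genes 2 were lower and 2 higher past the threshold, where 2.5% and 2.08% of all probe sets were. In the other lists 4 of 10 neuronal, 2 of 8 hepatocyte, 3 of 6 erythroid, 3 of 6 epithelial and 1 of 7 cartilage and bone genes averaged lower. None of those passed, and 44% of all probe sets averaged lower. The actin control lay at 0.0599 to 0.211 in MSTN-null and 0.134 to 0.579 in wild-type pools on MOE430A (exact permutation test, two-sided p = 0.0873, adjusted 0.210). Their part in the values of Neat1 and the other members was not tested.

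**Figure D4:**
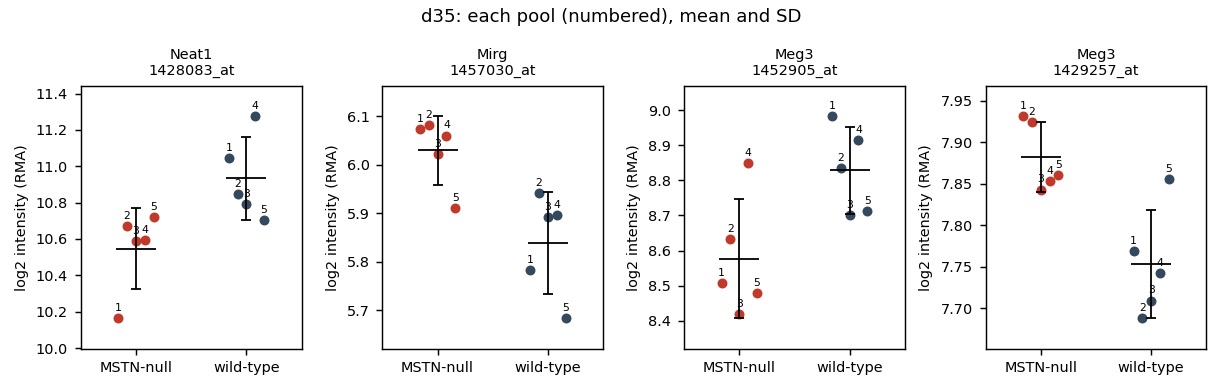
Log2 intensity (vertical axis) of each numbered pool at d35 for 4 probe sets, MSTN-null left and wild-type right, with the mean (long dash) and SD (bar) of 5 pools. Neat1 1428083_at and Meg3 1452905_at average lower and Mirg 1457030_at and Meg3 1429257_at higher in MSTN-null, with overlapping pools in each.

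The genotype difference itself was compared between ages in 1 limma fit of all 30 pools, a comparison that also sets different tissues side by side. The contrasts with 13.5 d.p.c. use the values on which the genes were selected and are a description. No member passed: 0 of 31 for 17.5 d.p.c. minus 13.5 d.p.c. (0% of all probe sets), 0 for d35 minus 13.5 d.p.c. (1.17%) and 0 for d35 minus 17.5 d.p.c. (0.715%), with 4, 3 and 1 members at an unadjusted p under 0.05 and smallest q of 0.612, 0.195 and 0.303. A difference between time points is therefore not shown for any member, and Benjamini-Hochberg gave 0 as well. The fit shares a variance over all 30 pools, so the spread at 17.5 d.p.c. also enters d35 minus 13.5 d.p.c. For Malat1 1418188_a_at the SE of that contrast was 0.61, against 0.07 and 0.20 in the separate fits of 13.5 d.p.c. and d35. A count of 0 thus does not show equal genotype differences. Without wild-type pool 1 of 17.5 d.p.c., 1 member passed, Meg3 1429257_at for d35 minus 13.5 d.p.c. (0.39, limma q = 0.0446). Its difference was 0.39 with that pool included too.

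**Figure D5:**
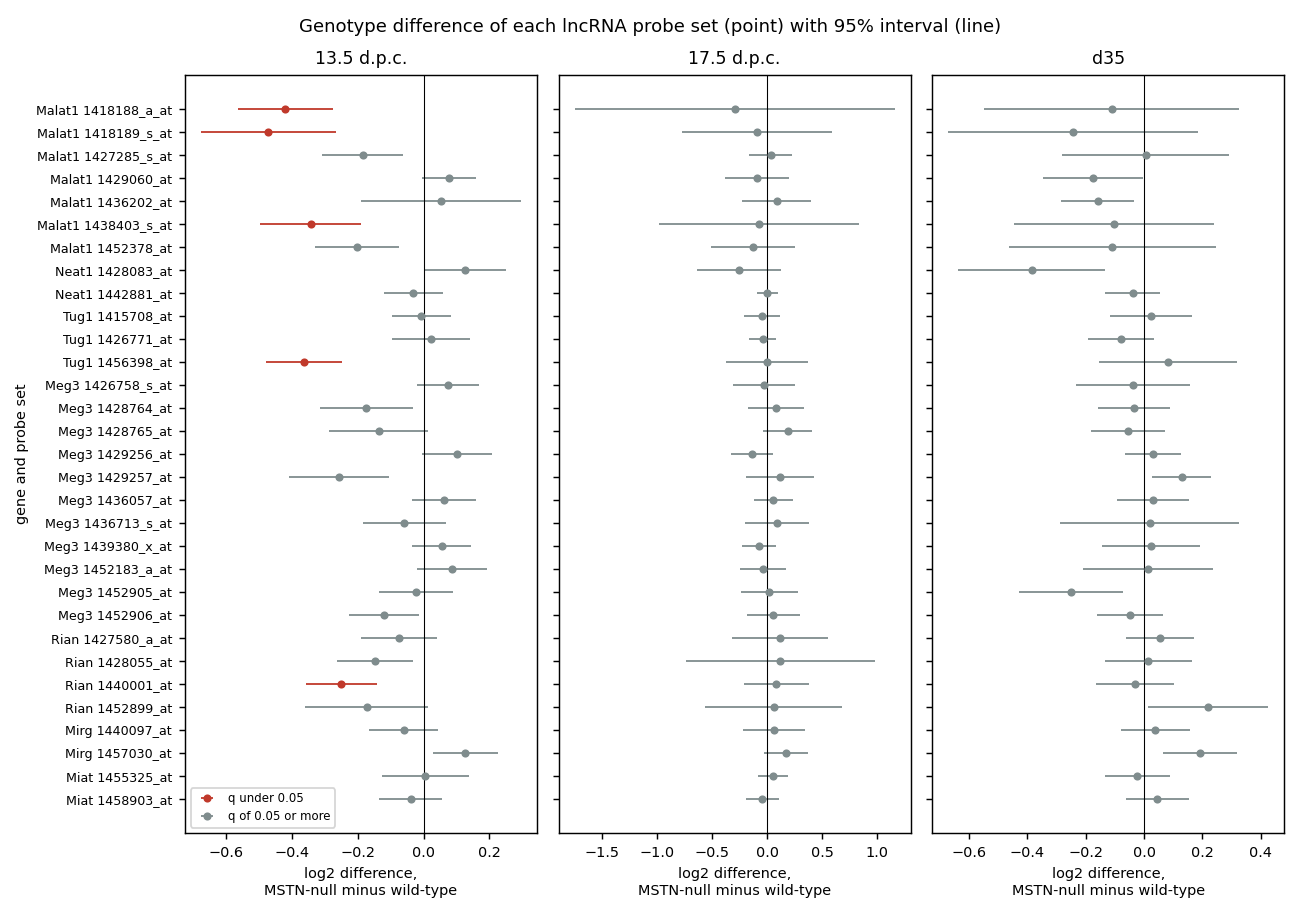
Difference between genotypes (horizontal axis, log2, MSTN-null minus wild-type, each panel with its own scale) for each of the 31 probe sets at the 3 time points, with 95% intervals as lines. Red marks the 5 probe sets with a Storey q under 0.05, all at 13.5 d.p.c. and all negative; the widest interval, from -1.75 to 1.16, is that of Malat1 1418188_a_at at 17.5 d.p.c.

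Genes for proteins that share the compartments of these RNAs were mostly not past the threshold. Of 27 nuclear speckle genes, 26 were measured by their brightest probe set, and at 13.5 d.p.c. 1 was lower past the threshold in MSTN-null embryos (0.513% of all probe sets were), Rbm25, a splicing regulator (10.1 in MSTN-null and 10.4 in wild-type, difference -0.33 ± 0.06 SE, limma q = 0.0206). The speckle list had 23, 14 and 24 of 26 negative differences in embryos, hindquarters and pectoralis, where 50.3%, 50.5% and 44% of all probe sets were negative, with medians of -0.02, -0.01 and -0.09, and 0 past the threshold at the later ages. Of 17 paraspeckle genes 16 were measured, and the only one past the threshold was Taf15, an RNA-binding protein, at d35, when 2.5% of all probe sets were lower (4.16 in MSTN-null and 4.41 in wild-type, -0.26 ± 0.07 SE, limma q = 0.0345), a dim probe set. None of the 11 subunits of the Polycomb complex PRC2 passed at any age (0 of 11 each time by limma's Storey q).

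Of the protein-coding genes of the Dlk1-Dio3 locus, Dlk1, a Notch-like membrane protein of the embryo, was the 1 of 4 measured, and it differed by 0.04, 0.03 and 0.19 at the 3 ages without passing. Among 58 other long noncoding RNAs 39 were measured. In MSTN-null embryos 1 of 39 was lower past the threshold, against 0.513% of all probe sets, the host gene Snhg11 (8.94 and 9.35, -0.40 ± 0.07 SE, limma q = 0.0180). At d35, 3 of 39 were lower in MSTN-null, against 2.5% of all probe sets: the host gene Snhg6 (7.72 in MSTN-null and 8.37 in wild-type, -0.64 ± 0.16 SE, limma q = 0.0306), Bvht, a cardiac lncRNA of the mouse (8.44 and 8.64, -0.20 ± 0.05 SE, limma q = 0.0243), and Xist, which coats the inactive X chromosome of females (8.62 and 9.12, -0.50 ± 0.14 SE, limma q = 0.0499). The Xist differences at the earlier ages, -0.66 ± 0.55 and -0.63 ± 0.72 (SE), were not past the threshold. The sex of the pooled animals is not given in the labels.

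Across the 30 pools, after the mean of each genotype and time point was taken off, the probe sets of 1 gene did not always vary together. As a description over pools that share arrays and RNA, Pearson's r among the 7 Malat1 probe sets ran from 0.19 to 0.96 (median 0.57), with 0.96 between 1418188_a_at and 1438403_s_at. The 4 of Rian ran from 0.49 to 0.90 (median 0.73), the 11 of Meg3 from -0.51 to 0.92 (median 0.42), and those of Tug1 from 0.11 to 0.61. The pairs of Mirg, Neat1 and Miat stood at 0.59, 0.20 and -0.29. Between genes, Malat1 and Rian probe sets had a median r of 0.51, and Malat1 and Neat1, neighbours on chromosome 19, one of -0.15.

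The 5 genes most like Malat1 1438403_s_at over the 30 pools, after removal of the time-point means and among the brighter part of each chip, were Ddx6, an RNA helicase of P-bodies (r = 0.96), Wnk1, a kinase of ion transport (0.96), Mia3, an export factor for collagens (0.94), the zinc finger gene Zfp644 (0.92) and Nrip1, a nuclear receptor corepressor (0.91). These correlations are a description, and they include the 17.5 d.p.c. pools that stood apart.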

How the data were processed

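RNA pools of MSTN-null and wild-type mice were measured on 2 Affymetrix chips at 3 time points. The authors processed the arrays by RMA in the R package affy (versions not given in the sources used here), and the deposited values are log2 intensities. Medians of the deposited arrays differ between time points, so tests were made within one. Precision is limited by the number of arrays.

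Groups came from the sample titles. The 64 controls per chip were left out, of the 100 spotted on either chip the MOE430A value was used, and the rest (45037) were fitted at each time point with limma 3.58.1 in R 4.3.3 (package data.table, version 1.17.8), MSTN-null minus wild-type, with Storey q-values and a threshold of 0.05. This was tested on simulated data. Of the probe sets, 34945 carry 1 gene symbol, 932 several and 9160 none. All member probe sets are covered at each age, with up to 4 called genes per list (by brightest probe set) and the 5 genes most like Malat1. Members, lists and alternatives were chosen with earlier results of these data known. RNA controls were compared by exact permutation tests. Figures used Python 3.11.15 and matplotlib. Alternatives covered the adjustment, chip, dim probe sets, normalization, variance moderation, a single fit, a replicate block, 1 probe set per gene and each pool left out.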

Additional observations from a re-analysis of the deposited data

Results flagged for a closer look

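In 20 of 186 groups of 5 pools (31 probe sets, 3 ages, 2 genotypes) the highest or lowest pool stood apart by Dixon's ratio. Chance alone marks about 1 group in 20 when groups are independent, but these groups share pools, and several share a gene. The share over all probe sets was not computed, so the count is not read as a trait of these RNAs. All values are log2 intensities of the pool, followed by the range of the other 4 pools of its group.

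At 17.5 d.p.c., MSTN-null pool 1 was lowest for Malat1 1418188_a_at (5.96 against 8.03 to 8.67), Malat1 1438403_s_at (9.86 against 11.11 to 11.31), Malat1 1452378_at (6.88 against 7.37 to 7.53) and Rian 1452899_at (10.34 against 11.14 to 11.36). MSTN-null pool 4 was lowest for Tug1 1415708_at (10.43 against 10.69 to 10.75) and Tug1 1426771_at (7.43 against 7.60 to 7.64) and highest for Miat 1458903_at (8.05 against 7.80 to 7.85). Wild-type pool 1 was lowest for Meg3 1428764_at (8.31 against 8.83 to 9.02) and Meg3 1429257_at (9.26 against 9.82 to 10.02), wild-type pool 2 for Meg3 1428765_at (8.69 against 8.82 to 8.87), and wild-type pool 5 was highest for Mirg 1440097_at (10.02 against 9.54 to 9.64).

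At 13.5 d.p.c., MSTN-null pool 4 was lowest for Meg3 1429257_at (9.63 against 9.92 to 10.04) and Meg3 1452905_at (12.09 against 12.31 to 12.35). Wild-type pool 5 was lowest for Malat1 1418188_a_at (10.03 against 10.35 to 10.41), wild-type pool 2 for Tug1 1426771_at (8.01 against 8.27 to 8.30), and wild-type pool 3 was highest for Neat1 1442881_at (9.75 against 9.60 to 9.63).

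At d35, MSTN-null pool 1 was lowest for Neat1 1428083_at (10.16 against 10.59 to 10.72) and MSTN-null pool 2 for Meg3 1428764_at (7.19 against 7.27 to 7.29). Wild-type pool 1 was highest for Meg3 1429256_at (7.15 against 7.06 to 7.08) and wild-type pool 2 lowest for Meg3 1452906_at (7.54 against 7.66 to 7.70).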

How the results depend on the processing

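The 5 members past the threshold at 13.5 d.p.c. kept their negative sign under every alternative run, but not their call. The count was 3 by Benjamini-Hochberg, 3 after further quantile normalization, 3 with the replicate block, and 0 in 1 fit of all 30 pools and with only the brightest probe set of each gene, and it ran from 0 to 5 when each pool was left out in turn. Over all probe sets, 243 were past the threshold, against 159, 167, 204, 0 and 9 under those settings and 1 to 479 when each pool was left out. At 17.5 d.p.c. 0 members passed under all alternatives, with 14 probe sets in all past the threshold in 1 fit of all pools. At d35 the count was 1 after quantile normalization (Neat1 1428083_at) and 1 with the replicate block (Meg3 1452905_at, q = 0.0497), and 0 to 1 when each pool was left out, and over all probe sets it was 2062, against 1324 by Benjamini-Hochberg, 1345 by brightest probe set and 777 to 2003 with a pool left out. In the comparison of ages, where 848 calls were made over all probe sets and the 3 contrasts, 1 member, Meg3 1429257_at in d35 minus 13.5 d.p.c., passed with the replicate block (q = 0.0313) and without wild-type pool 1 of 17.5 d.p.c. (q = 0.0446), so the count was 0 to 1 when each pool was left out, and over all probe sets it was 1272 with the block and 443 to 1378 with a pool left out. Pools with the same number were not treated as pairs, since the labels give no shared source and not every correlation of their deviations was above 0.1: they ran from -0.10 to 0.08, -0.20 to 0.48 and -0.17 to 0.14 at the 3 ages, and 0, 3 and 0 of 5 MSTN-null pools correlated best with their own number. At 17.5 d.p.c. pools 1, 3 and 5 did deviate together (r = 0.30, 0.39 and 0.48), which is a hint from the data and not from the design. Pools with different numbers ran from -0.33 to 0.49 at that age, so these values alone do not set the same-number pools apart.

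Of 93 member differences, 40 changed sign under some alternative, 5, 22 and 13 by age, none of them called. Quantile normalization gave 0.0095 for Tug1 1415708_at at 13.5 d.p.c., and with each pool left out it ran from -0.028 to 0.012, Tug1 1426771_at from -0.033 to 0.039 and Malat1 1436202_at from -0.060 to 0.12. At 17.5 d.p.c. Malat1 1418188_a_at (0.074) and 1438403_s_at (0.028) turned positive without the pools 1 and wild-type pool 5, an alternative chosen after seeing the data, as was leaving out the pools 1 alone, where Rian 1428055_at was -0.067. Each kept its sign under the other of these exclusions. With each pool left out in turn these 3 ran from -0.81 to 0.17, -0.44 to 0.20 and -0.23 to 0.40. The mean wild-type percentile of the members at d35 was 71.7, and 69.7 among probe sets with 1 gene symbol. The cause of these changes was not tested.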
